A study of Mus musculus with 6 samples.

Results

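In mouse keratinocytes, 11 genes had at least 1 transcript whose estimated level differed with and without interleukin-33 (IL-33), and 9 of them are described here. The log2 fold changes of the gene totals lay between -0.03 and 0.06 in 6 of these 9. In Nsun2 and Ampd3 the same transcript led every IL-33 library and another led every untreated library. In Frmd4b, Zmym1 and Hnrnpf no IL-33 library shared its leading transcript with an untreated library, but the leading transcript varied within a group. Arhgef11-202 led libraries of both groups. Hnrnpk and Mrpl48 had the same leading transcript in all 6 libraries and Setdb1 in 5 of 6, so not all of the genes switched. The 9 genes are Nsun2, Ampd3, Arhgef11, Frmd4b, Setdb1, Zmym1, Hnrnpf, Hnrnpk and Mrpl48, out of 52550 genes in the tables. They were chosen because at least 1 of their transcripts differed between the groups in edgeR's quasi-likelihood test on the transcript table at an adjusted p under 0.05, so their differences between the groups are given as a description and carry no test. All of their transcripts are described, 102 of 131146 in the table. Keratinocytes treated for 12 h with recombinant IL-33 were compared with untreated ones, with 3 libraries each. Both groups were wild-type C57BL/6 primary keratinocytes from the epidermis of newborn mice aged 0 to 2 days, after 2 days in culture. The labels do not say whether the 3 cultures of a group came from different animals, so the spread between libraries may be technical.

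IL-33 is a cytokine of the IL-1 family that epithelial cells, keratinocytes among them, hold in the nucleus and release on damage. One gene can yield several transcripts by using another first exon, skipping an exon, keeping an intron or ending early, and these transcripts can encode different proteins or none. A transcript whose stop codon lies far upstream of its last exon junction can be degraded by nonsense-mediated decay. Short reads seldom cover a whole transcript, so the amount of each transcript is an estimate drawn from reads that several transcripts share.

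The libraries held 34188173 to 44255925 deposited estimated counts with IL-33 and 41456441 to 45266298 without. The summed level of 6 basal keratinocyte markers was 35261 to 37831 CPM (counts scaled to 1000000 per library) with IL-33 and 35246 to 36229 CPM untreated, and that of 4 suprabasal markers was 8.95 to 12.1 CPM with IL-33 and 10.4 to 11.5 CPM untreated. Markers of other cells were also present in both groups. The 5 melanocyte markers summed to 1090 to 1190 CPM with IL-33 and 1093 to 1149 CPM untreated, the 6 fibroblast markers to 26.4 to 31.1 CPM with IL-33 and 29.6 to 38.2 CPM untreated. The 4 mast cell markers summed to 15.6 to 19.4 CPM with IL-33 and 17.1 to 20.5 CPM untreated. Cpa3 and Mcpt4 were at 0 in every library, so this sum came from Cma1 and Kit alone and does not establish mast cells. The 4 immune cell markers reached 0.365 to 3.10 CPM with IL-33 and 0 to 0.761 CPM untreated, with Cd207 and Cd3e at 0, and the 2 endothelial markers 2.85 to 3.95 CPM with IL-33 and 1.83 to 3.64 CPM untreated. The part of these cells in the results was not tested, and in bulk RNA fewer cells of a type and less RNA per cell cannot be told apart.

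In the transcript test 12 of 40163 transcripts passed (0.0299%), 6 of them higher with IL-33 (0.0149%) and 6 lower (0.0149%), and 10 of the 12 belong to the 9 genes because that test chose them. Of the other 2, 1 belongs to Golim4, which encodes a Golgi membrane protein. The number that passed was 6 when untreated replicate 2 was left out, 7 when IL-33 replicate 1 was and 28 when IL-33 replicate 3 was. Of the 102 transcripts, 63 had enough counts to be tested and 6 were at 0 in every library. Transcript levels below are FPKM (fragments scaled to transcript length and library size), and a share is a transcript's FPKM as a percentage of the sum over the gene's transcripts. The 37 transcripts with a mean share of at least 5% in a group are given by name. The annotation holds a coding sequence for 64 of the 102, complete in 36, and these 36 encode 25 different proteins, while 38 have no coding sequence, 27 of them as retained introns. Of the 10 transcripts that chose the genes, 5 had no exon base of their own, that is, none found in no other transcript of the gene, as had 31 of all 102 (30.4%). These 5 were Nsun2-208, Zmym1-201, Hnrnpf-201, Hnrnpk-209 and Frmd4b-209. Arhgef11-205 had 1 such base, Ampd3-208 had 22, Setdb1-201 had 38, Ampd3-206 had 137 and Mrpl48-207 had 307. Reads across single junctions are not analysed here.

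**Figure D1:**
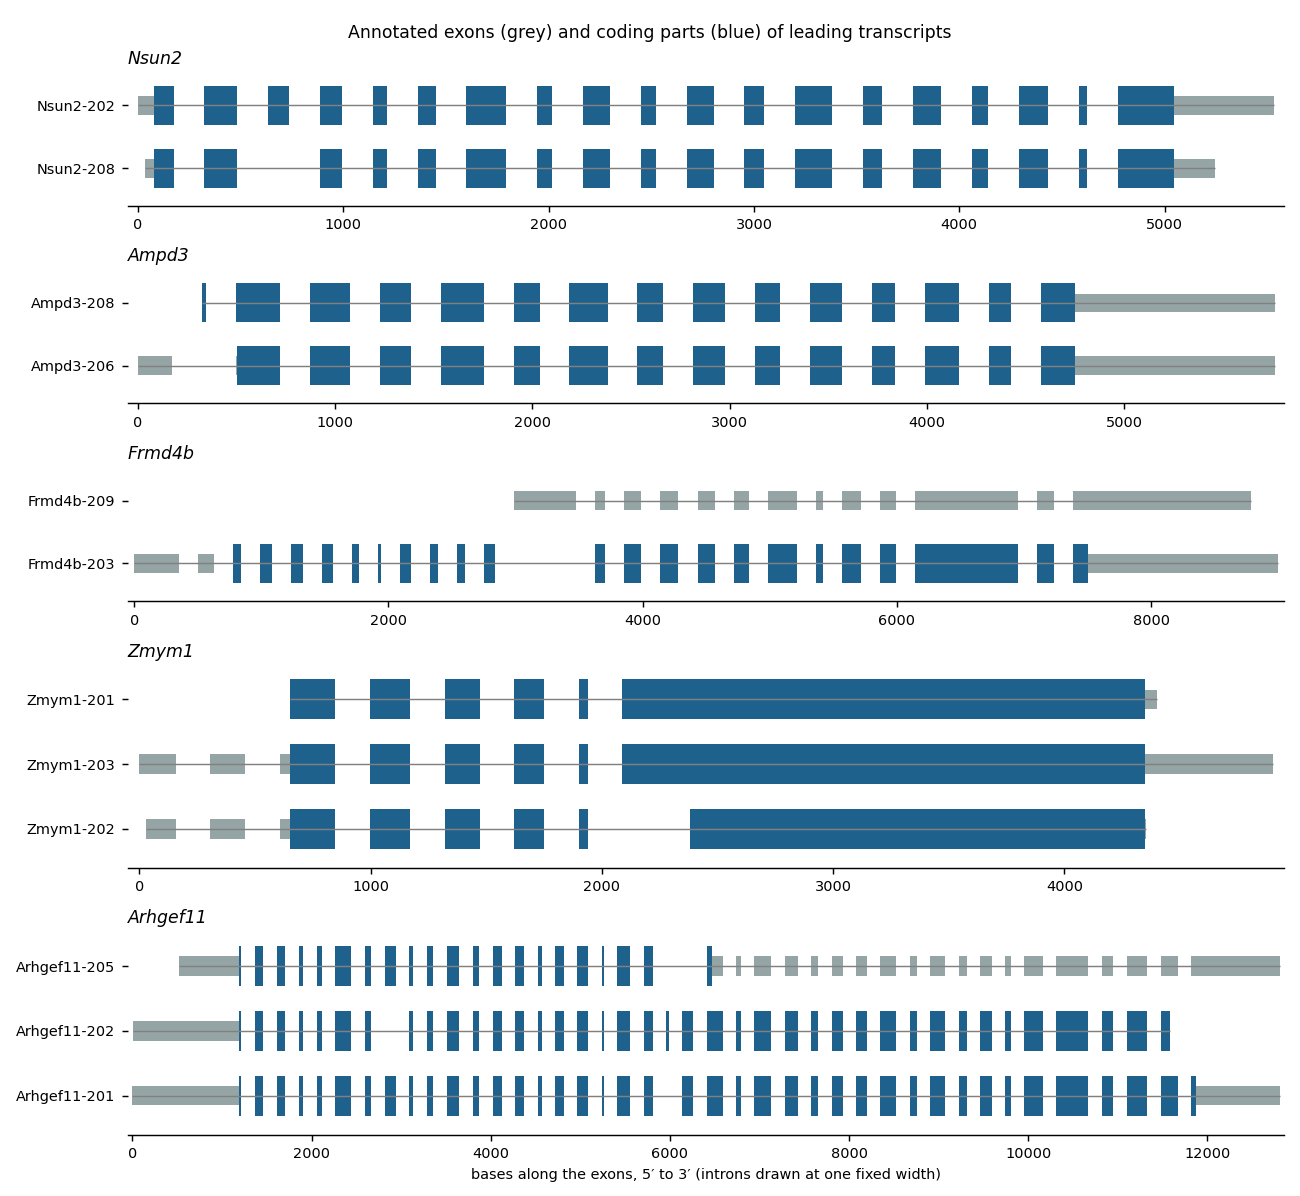
Annotated exons (grey) and coding parts (blue) of the leading transcripts of Nsun2, Ampd3, Frmd4b, Zmym1 and Arhgef11, drawn 5′ to 3′ in bases with every intron at one fixed width. Nsun2-208 lacks the third exon of Nsun2-202, Ampd3-208 starts from another first exon than Ampd3-206, Frmd4b-209 has no coding part, and the coding part of Arhgef11-205 ends soon after the exon it skips.

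Nsun2 encodes the methyltransferase that makes 5-methylcytosine in tRNAs and other RNAs, and in mouse skin it is known for its part in the differentiation of hair follicle stem cells. With IL-33 nearly all of its signal was assigned to Nsun2-202, and in untreated cells most of it to Nsun2-208. Both encode the enzyme, Nsun2-202 with 757 residues and Nsun2-208 with 722, and differ by 105 coding bases, a multiple of 3, at chr13:69612938-69613042 on the plus strand (GRCm38). The first sequence is that exon in capitals with the bases before and after it in the transcript, and the second is the junction that takes its place.
Nsun2-202: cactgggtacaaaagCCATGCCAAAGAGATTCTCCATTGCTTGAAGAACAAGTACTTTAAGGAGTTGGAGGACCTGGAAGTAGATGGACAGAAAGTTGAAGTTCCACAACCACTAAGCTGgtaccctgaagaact
Nsun2-208: cactgggtacaaaaggtaccctgaagaact

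Nsun2-202 had 97.8, 99.4 and 97.1 FPKM with IL-33, against 37.7, 24.8 and 36.3 FPKM untreated. Nsun2-208 was listed at 0 in all 3 IL-33 libraries, against 70.3, 69.7 and 71.0 FPKM untreated, from 8412, 7739 and 8596 deposited counts. For both transcripts every IL-33 library lay apart from every untreated library. The share of Nsun2-202 was 95.1% ± 0.832 with IL-33 and 28.1% ± 7.26 untreated (SD, n = 3 each). Of all 8 transcripts of the gene, the 4 that hold the 105-base exon whole took 99.3%, 99.6% and 98.7% with IL-33, against 38.6%, 43.3% and 36.8% untreated. The short non-coding Nsun2-203 appeared in untreated replicate 2 alone, at 15.3% of the gene, and the 5 other transcripts stayed under 6.56% in each library. The annotation gives Nsun2-208 the support level 5, its lowest, which it also gives to Ampd3-208 and Frmd4b-209.

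Ampd3 encodes an AMP deaminase, the form first known from red blood cells, which turns AMP into IMP. With IL-33 its leading transcript was Ampd3-208, which was near 0 in untreated cells, where Ampd3-206 led. Ampd3-208 encodes 775 residues and Ampd3-206 encodes 766. They begin in different first exons of the plus strand of chromosome 7, so that Ampd3-208 adds 27 coding bases in front of the start codon of Ampd3-206. The starts of both coding sequences (GRCm38, chr7:110768911-110777836 and chr7:110777804-110777836) show the added bases in capitals.
Ampd3-208: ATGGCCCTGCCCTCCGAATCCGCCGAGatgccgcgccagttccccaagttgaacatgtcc
Ampd3-206: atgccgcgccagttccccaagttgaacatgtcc

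Ampd3-208 had 18.5, 20.4 and 19.2 FPKM with IL-33, against 0.00177, 0.00746 and 0.00175 FPKM untreated, and its deposited counts were 3009, 2572 and 3161 with IL-33 against 1, 2 and 1 untreated. The untreated counts lie under the floor of 12 deposited counts, about 3 sequenced fragments, below which a transcript was not taken as detected. Ampd3-206 had 3.02, 3.04 and 3.25 FPKM with IL-33, against 19.6, 20.4 and 20.7 FPKM untreated. The groups did not overlap for either transcript. Ampd3-201 encodes the same 766 residues as Ampd3-206, and the 2 together took 15.5% ± 3.03 of the gene with IL-33 and 84.2% ± 4.26 untreated (SD, n = 3 each). Ampd3-208 alone took 69.6% ± 2.18 with IL-33 and 0.0144% ± 0.0133 untreated. Ampd3-203, a fragment with an incomplete coding sequence, took 9.28% to 17.9% with IL-33 and 10.2% to 20.1% untreated, which overlap.

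Arhgef11 encodes PDZ-RhoGEF, an exchange factor that binds the G proteins of the G12/13 class and activates the small GTPase RhoA. With IL-33, 40.7% to 54.1% of its signal was assigned to Arhgef11-205, which is annotated as a target of nonsense-mediated decay and was at or near 0 in untreated cells. Arhgef11-205 skips an exon of 127 bases, which is no multiple of 3, at chr3:87722357-87722483 on the plus strand (GRCm38). Its coding sequence then ends after 608 codons, where Arhgef11-201 has 1552, and its stop codon lies 2646 bases before the last exon junction. The skipped exon is in capitals in the first sequence, the second is the junction across it, and the third is the end of the shortened coding sequence with the stop codon in capitals.
Arhgef11-201: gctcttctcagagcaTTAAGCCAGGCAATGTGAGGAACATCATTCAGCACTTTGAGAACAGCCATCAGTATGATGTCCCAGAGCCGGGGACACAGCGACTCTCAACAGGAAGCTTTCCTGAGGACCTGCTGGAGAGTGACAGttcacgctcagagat
Arhgef11-205 junction: gctcttctcagagcattcacgctcagagat
Arhgef11-205 end: ctgaaagcctcaagggccgggaggagaTGA

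Arhgef11-205 had 9.80, 9.79 and 6.86 FPKM with IL-33, against 0, 0.000404 and 0 FPKM untreated, with 0, 1 and 0 deposited counts in the untreated libraries. Its share was 49.6% ± 7.68 with IL-33 and 0.000762% ± 0.00132 untreated (SD, n = 3 each). Arhgef11-201, the full-length form, had 1.32, 0.728 and 1.84 FPKM with IL-33, against 7.82, 10.1 and 3.28 FPKM untreated, without overlap. Arhgef11-202, whose annotated coding sequence stops short of an end, overlapped between groups at 26.2%, 42.1% and 46.7% with IL-33 and 53.4%, 39.0% and 79.2% untreated. The 2 transcripts that hold the 127-base exon whole took 33.5% to 57.6% of the gene with IL-33, against 96.2% to 98.3% untreated. Arhgef11 shares 991 exon bases with Lrrc71 on the opposite strand, and the sources used here do not give the strand setting of the counting.

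Frmd4b encodes a protein with a FERM domain that binds cytohesins, the exchange factors of ARF GTPases. With IL-33 its leading transcript was the non-coding Frmd4b-209, which was listed at 0 in every untreated library. Frmd4b-209 has 13 exons and 3996 bases, 87.8% of which also lie in exons of Frmd4b-203. The rest lie in exons of other transcripts of the gene, so Frmd4b-209 has no exon base of its own. It begins far downstream of the start codon of Frmd4b-203. Frmd4b-209 had 11.3, 9.84 and 11.9 FPKM with IL-33, from 2194, 1488 and 2348 deposited counts, which is 60.8%, 51.3% and 65.7% of the gene. The transcripts with a full coding sequence together took 34.9% ± 7.27 with IL-33 and 87.4% ± 3.85 untreated (SD, n = 3 each).

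Untreated libraries differed among themselves in which coding transcript of Frmd4b they held. Frmd4b-203, with 981 codons, had 33.9%, 42.7% and 20.7% with IL-33, against 26.3%, 57.9% and 84.9% untreated. Frmd4b-204, with 989 codons, was listed at 0 in all IL-33 libraries and at 59.3%, 0 and 0 untreated. Frmd4b-201, with 1035 codons, had 0, 0 and 7.57% with IL-33 and 6.25%, 27.6% and 0 untreated. These proteins differ at their first residues only, as the starts of their coding sequences on the minus strand of chromosome 6 show (GRCm38, chr6:97459194-97459217 and chr6:97487593-97487754 for the capitals), where the lower-case letters are common to all.
Frmd4b-204: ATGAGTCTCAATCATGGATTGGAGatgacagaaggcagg
Frmd4b-201: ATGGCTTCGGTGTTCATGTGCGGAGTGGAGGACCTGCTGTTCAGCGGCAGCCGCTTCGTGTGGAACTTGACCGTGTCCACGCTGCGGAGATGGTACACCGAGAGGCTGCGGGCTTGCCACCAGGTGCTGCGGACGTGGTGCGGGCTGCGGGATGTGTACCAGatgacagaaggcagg
Frmd4b-203: atgacagaaggcagg

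Setdb1 encodes a histone methyltransferase that places methyl groups on lysine 9 of histone H3 and is known for silencing retroelements. The transcript that set the groups apart, Setdb1-201, encodes the same protein of 1308 residues as Setdb1-202, from which it differs by 38 exon bases before the coding sequence. Setdb1-201 had 3.15, 4.63 and 2.83 FPKM with IL-33, against 0.0339, 0.0650 and 0.0427 FPKM untreated, or 20.0%, 28.0% and 18.1% of the gene with IL-33 against 0.230%, 0.397% and 0.296% untreated. Setdb1-202 had 20.0%, 31.8% and 24.8% with IL-33, against 39.2%, 38.5% and 31.0% untreated, so the groups overlap. The 1308-residue protein, summed over both, took 40.01%, 59.8% and 42.8% with IL-33 and 39.4%, 38.9% and 31.3% untreated. The lowest IL-33 library was just above the highest untreated one.

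Setdb1-203 encodes 1307 residues and lacks 3 coding bases of the longer form at chr3:95340063-95340065 on the minus strand (GRCm38), which are in capitals in the first sequence and missing from the second.
Setdb1-201: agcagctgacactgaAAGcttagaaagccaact
Setdb1-203: agcagctgacactgacttagaaagccaact
Setdb1-203 took 12.7%, 26.8% and 13.1% with IL-33 and 16.3%, 16.6% and 14.9% untreated. Setdb1-204, which keeps an intron and has no coding sequence, led the gene in 5 of 6 libraries with 47.2%, 12.6% and 43.4% with IL-33 and 43.9%, 44.4% and 53.7% untreated. Both overlap between the groups, and IL-33 replicate 2 was the highest library for Setdb1-203 and the lowest for Setdb1-204.

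Zmym1 encodes a zinc finger protein of the MYM type. With IL-33 most of its signal was assigned to Zmym1-201, which was at or near 0 in untreated cells, where no single transcript led in all 3 libraries. Zmym1-201 and Zmym1-203 encode the same 983 residues, and every exon base of Zmym1-201 is also in Zmym1-203. Zmym1-202 encodes 885 residues because it lacks 294 coding bases at chr4:127049613-127049906 on the minus strand (GRCm38), shown in capitals in the first sequence, with the junction that replaces them in the second.
Zmym1-201: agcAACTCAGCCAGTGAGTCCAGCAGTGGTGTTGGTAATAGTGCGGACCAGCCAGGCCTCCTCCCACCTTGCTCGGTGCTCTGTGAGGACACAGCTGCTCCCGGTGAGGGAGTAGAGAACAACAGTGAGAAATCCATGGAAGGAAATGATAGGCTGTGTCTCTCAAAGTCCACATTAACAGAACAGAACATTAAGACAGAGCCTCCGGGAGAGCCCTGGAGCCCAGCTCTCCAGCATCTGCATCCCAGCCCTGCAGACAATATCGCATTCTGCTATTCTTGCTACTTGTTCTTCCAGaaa
Zmym1-202: gatgtcatcatgagcaaaaaatttagctgt

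Zmym1-201 had 3.90, 6.57 and 6.56 FPKM with IL-33, from 572, 747 and 969 deposited counts, against 1 deposited count in each untreated library. Its share was 61.3%, 89.9% and 91.6% with IL-33, against 0.276%, 0.00113% and 0.00568% untreated. Zmym1-202 was listed at 0 in all IL-33 libraries and took 46.7%, 22.3% and 42.4% untreated. The 983-residue protein, summed over its 2 transcripts, took 97.1% ± 2.37 with IL-33 and 43.3% ± 36.1 untreated (SD, n = 3 each), and the untreated libraries ranged from 5.80% to 77.7%. Zmym1-203 alone had 33.2%, 9.23% and 6.05% with IL-33 and 46.2%, 77.7% and 5.79% untreated. The non-coding Zmym1-204 took 43.3% in untreated replicate 3 and at most 0.848% elsewhere, and Zmym1-206, also non-coding, at most 5.5% with IL-33 and 8.49% untreated. Zmym1 had the fewest counts of the 9 genes and shares 1709 exon bases with Gm12940 on the opposite strand, whose reads cannot be told apart from its own where strand was not used.

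Hnrnpf and Hnrnpk encode heterogeneous nuclear ribonucleoproteins, RNA-binding proteins that act in splicing and other steps of RNA handling, Hnrnpf at runs of G and Hnrnpk at runs of C. Hnrnpf-201 had 21, 23.3 and 16.7 FPKM with IL-33, against 179, 178 and 176 FPKM untreated. The share of Hnrnpf-201 was 7.78% ± 1.94 with IL-33 and 61.2% ± 12.4 untreated (SD, n = 3 each), without overlap. Hnrnpf-208, a fragment with 208 codons and no annotated end, had 77.5%, 76.3% and 38.3% with IL-33 and 14.5%, 39.6% and 40.5% untreated, which overlap.

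IL-33 replicate 3 stood apart from the other IL-33 libraries for Hnrnpf. Hnrnpf-209 took 48.3% of the gene there, from 16313 deposited counts, against 2.32% and 2.53% in IL-33 replicates 1 and 2 and 0.346% to 0.621% untreated. Hnrnpf-201, Hnrnpf-209 and 3 other transcripts all encode the same 415 residues and differ outside the coding sequence. Together these 5 took 18.7%, 19.8% and 59% with IL-33 and 79.2%, 58.1% and 56.3% untreated. For transcripts annotated with the whole protein the groups therefore overlap. Without IL-33 replicate 3 they did not overlap. The 208 codons of Hnrnpf-208 encode the first 208 residues of the same protein, and Hnrnpf-208 is not in this sum.

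Hnrnpk has 34 annotated transcripts, and Hnrnpk-205, with 439 residues, led in every library at 40.5%, 43.8% and 33.8% with IL-33 and 41.9%, 35.4% and 35.0% untreated. The transcript that set the groups apart was Hnrnpk-209, a short retained-intron form with no coding sequence, at 0.0843%, 0.102% and 0.0719% with IL-33 and 7.51%, 8.90% and 9.52% untreated. Hnrnpk-206, also a retained intron, had 8.67%, 10.4% and 7.63% with IL-33 and 4.2%, 3.36% and 3.81% untreated, and it shares 91.8% of the bases of Hnrnpk-209. The retained intron Hnrnpk-211 split the libraries another way, with 4.59%, 4.88% and 24% with IL-33 and 5.51%, 26.6% and 23.6% untreated. The fragment Hnrnpk-226 had 14.7%, 0.624% and 9.24% with IL-33 and 5.76%, 0.311% and 0.448% untreated.

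Among the full coding forms of Hnrnpk, Hnrnpk-202 had 19.5%, 26.7% and 12.9% with IL-33, against 12.7%, 8.14% and 9.12% untreated, and Hnrnpk-232 had 1.79%, 1.07% and 3.18% with IL-33, against 8.66%, 6.41% and 4.06% untreated. Neither overlapped between the groups, and the 2 lie on opposite sides, but they encode the same 464 residues. Summed with Hnrnpk-224, which encodes the same protein, they took 21.5%, 27.8% and 16.1% with IL-33 and 21.4%, 14.6% and 13.2% untreated, which overlap. The 464-residue form differs from Hnrnpk-205 by a 72-base exon at chr13:58396188-58396259 and by its last residues, both on the minus strand (GRCm38). The exon is in capitals in the first sequence, and the ends of the 2 coding sequences follow. Capitals in the ends mark bases read from different genomic positions, and both stretches begin with the same letters.
Hnrnpk-202 exon: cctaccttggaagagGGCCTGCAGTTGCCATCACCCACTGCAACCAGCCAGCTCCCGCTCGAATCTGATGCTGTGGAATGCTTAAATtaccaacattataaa
Hnrnpk-202 end: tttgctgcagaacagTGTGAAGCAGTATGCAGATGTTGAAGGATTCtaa
Hnrnpk-205 end: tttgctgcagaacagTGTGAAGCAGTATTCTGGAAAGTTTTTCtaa
Transcripts that hold the 72-base exon whole took 36.9% to 52.1% of Hnrnpk with IL-33 and 35.6% to 44.9% untreated, so the use of this exon overlapped between the groups.

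Mrpl48 encodes a protein of the large subunit of the mitochondrial ribosome. Its leading transcript in every library was Mrpl48-206, a fragment whose annotated coding sequence has 51 codons and no end, at 57.5%, 74.4% and 61.8% with IL-33 and 50.3%, 44.6% and 46.0% untreated. Mrpl48-207 encodes 113 residues, of which the first 51 are those that Mrpl48-206 encodes. Mrpl48-207 had 1.51, 1.93 and 1.37 FPKM with IL-33, against 17.4, 17.9 and 15.2 FPKM untreated. The share of Mrpl48-207 was 3.63% ± 0.956 with IL-33 and 35.1% ± 4.74 untreated (SD, n = 3 each), without overlap. Mrpl48-208 encodes the longest form, with 211 residues, whose last 111 residues are also the last of Mrpl48-207. It had 7.93%, 11% and 7.28% with IL-33 and 6.90%, 6.83% and 5.91% untreated, and its level was 3.79, 4.51 and 3.32 FPKM with IL-33 against 3.32, 3.11 and 2.99 FPKM untreated, so in FPKM the groups nearly touched. Mrpl48-202, annotated as a target of nonsense-mediated decay, did not follow the groups, with 22.3%, 1.06% and 22.5% with IL-33 and 0.324%, 0.189% and 14.1% untreated. Mrpl48 shares 708 exon bases with Rab6a on the opposite strand.

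Exons of the other genes, Frmd4b excepted, also overlap annotated exons of another gene. On the opposite strand Nsun2 shares 469 bases with Gm17108 and 165 with Tent4a, and Ampd3 shares 196 with B430319F04Rik and 195 with Rnf141. Ampd3 also shares 83 bases with Gm47282 on its own strand. Hnrnpf shares 410 bases with 4933440N22Rik and 396 with Gm43863, Hnrnpk 330 with Rmi1, and Setdb1 249 with Gm37500 and 75 with Cers2, all on the opposite strand. The part of these overlaps in the results was not tested.

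**Figure D2:**
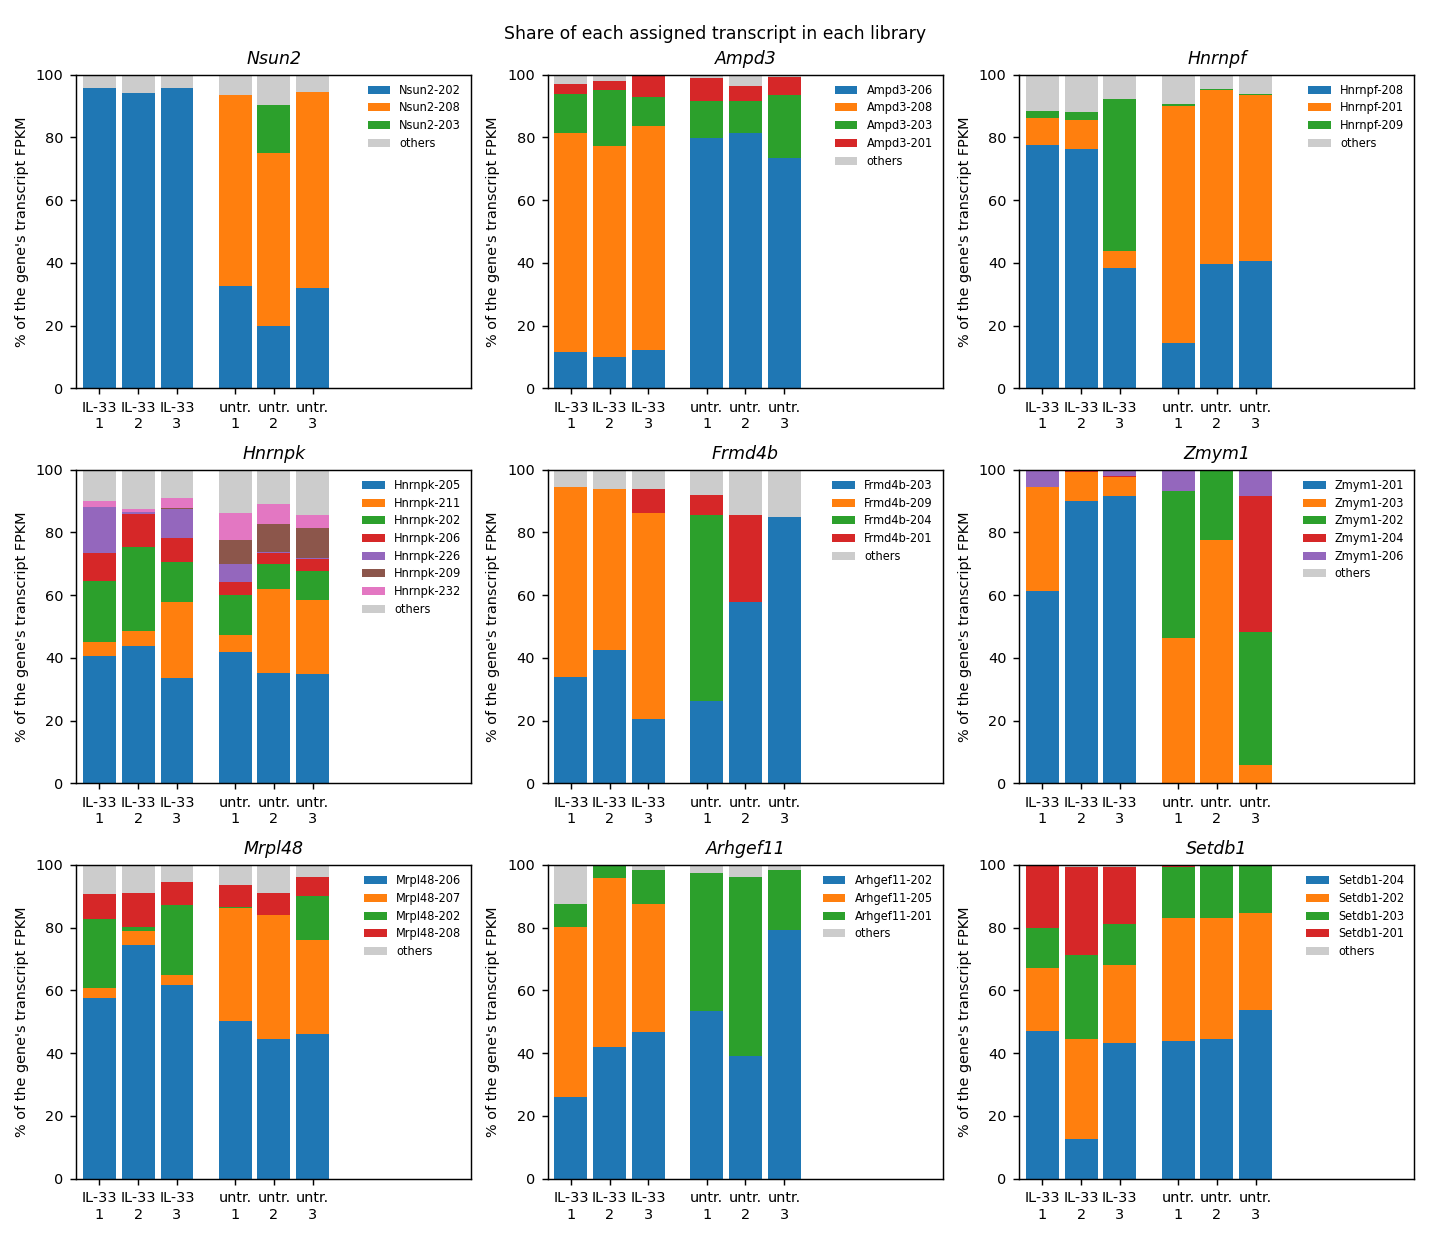
Share of each transcript in the summed transcript FPKM of its gene (y axis, %), in the 3 IL-33 libraries and the 3 untreated (untr.) libraries of each of the 9 genes. Transcripts with a mean share of at least 5% in a group have a colour and the rest are grey. Nsun2-203 shows in untreated replicate 2 alone, Frmd4b and Zmym1 differ among untreated libraries, and Hnrnpf differs in IL-33 replicate 3.

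Of the 37 transcripts named here, 19 had shares that did not overlap between the groups, 11 higher and 8 lower with IL-33. Over all genes with at least 2 transcripts and a mean of at least 400 deposited counts, 10.8% of the transcripts with such a share did not overlap. Nothing is read from this difference because the genes were chosen on the same contrast. The remaining 65 transcripts of the 9 genes had a share of at most 11% in any library. The members nearest to the threshold of the transcript test were Arhgef11-205 and Setdb1-201 inside it, and Hnrnpk-206 and Nsun2-202 outside it. Their deposited counts were 2928, 2269 and 2067 for Arhgef11-205 and 715, 817 and 649 for Setdb1-201 with IL-33, against 0, 1 and 0 for Arhgef11-205 and 8, 14 and 10 for Setdb1-201 untreated. They were 1323, 1118 and 1434 for Hnrnpk-206 and 13511, 10663 and 13544 for Nsun2-202 with IL-33, against 654, 605 and 740 for Hnrnpk-206 and 5304, 3248 and 5178 for Nsun2-202 untreated.

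The gene totals showed much smaller differences than the transcripts, but the genes were chosen for their transcripts, so nothing is read from this contrast. The Nsun2 total was 317, 325 and 315 CPM with IL-33, against 323, 318 and 316 CPM untreated. The log2 fold change of its total, IL-33 over untreated, was 0.00 with a 95% interval of -0.08 to 0.08. The Ampd3 total was 87.4, 96.0 and 94.7 CPM with IL-33, against 86.8, 87.4 and 92.3 CPM untreated (log2 fold change 0.06, 95% interval -0.07 to 0.19). The Frmd4b total averaged 85.6 ± 4.65 CPM with IL-33 and 85.8 ± 0.922 CPM untreated, and the Arhgef11 total 114 ± 5.22 CPM with IL-33 and 116 ± 5.81 CPM untreated (SD, n = 3 each). The Setdb1 total averaged 88.1 ± 1.31 CPM with IL-33 and 85.9 ± 5.68 CPM untreated, and the Hnrnpk total 531 ± 21.5 CPM with IL-33 and 543 ± 23.6 CPM untreated. These 6 totals overlapped between the groups, and their log2 fold changes lay between -0.03 and 0.06.

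The totals of Hnrnpf, Zmym1 and Mrpl48 were less even. The Hnrnpf total was 315, 335 and 573 CPM with IL-33, against 492, 589 and 596 CPM untreated, so IL-33 replicate 3 lay among the untreated libraries (log2 fold change -0.46, 95% interval -1.22 to 0.31). Without that library the log2 fold change was -0.78 (95% interval -1.01 to -0.55). The Zmym1 total was 22.2, 25 and 23.9 CPM with IL-33, against 7.93, 21.7 and 17.8 CPM untreated (log2 fold change 0.58, 95% interval -0.38 to 1.54), and without untreated replicate 1 the log2 fold change was 0.26 (95% interval -0.02 to 0.53). The Mrpl48 total was 60.3, 57.4 and 57.0 CPM with IL-33, against 73.0, 70.3 and 71.9 CPM untreated, and the groups did not overlap (log2 fold change -0.30, 95% interval -0.43 to -0.17). Each total includes the transcripts that chose its gene. The 95% intervals of the totals, also those without a library, are therefore a description and no test. None of the 9 totals passed edgeR's test over all genes, in which 11 of 15778 genes (0.0697%) passed, 7 higher with IL-33 (0.0444%) and 4 lower (0.0254%). There 1063 genes had an unadjusted p under 0.05. DESeq2 called 60 genes, 28 higher and 32 lower, and limma on log2 FPKM called 2. In edgeR 90 genes passed when IL-33 replicate 3 was left out, 16 higher and 74 lower, 20 when IL-33 replicate 1 was and 18 when untreated replicate 3 was. Totals that did not overlap were seen in 2 of the 9 genes, Zmym1 and Mrpl48, and in 13.7% of all genes tested.

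**Figure D3:**
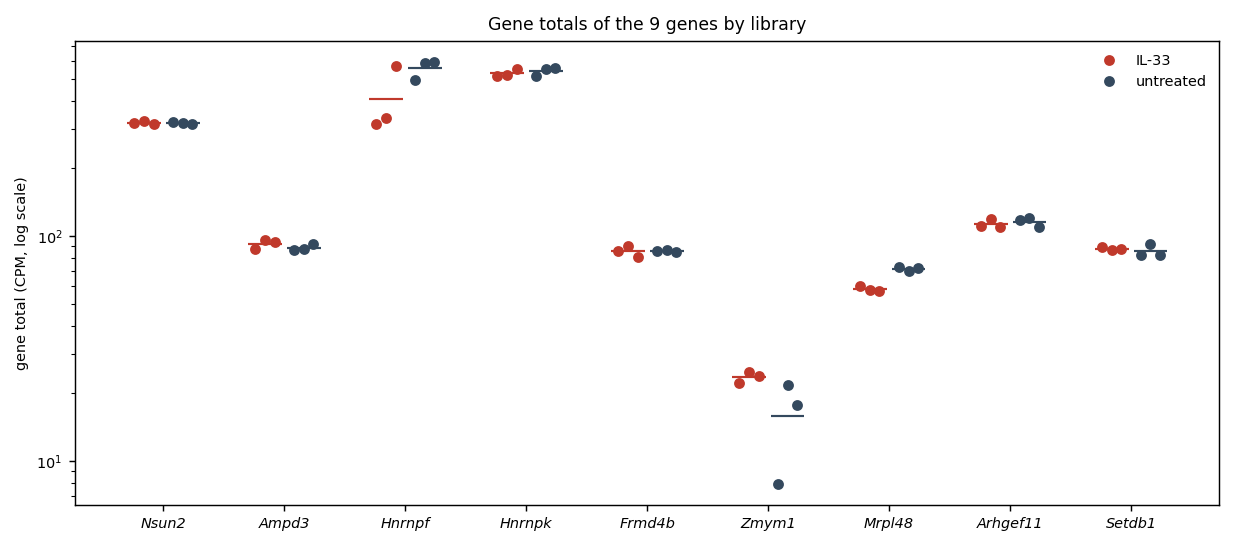
Gene totals of the 9 genes in CPM (y axis, log scale), with 1 point per library, IL-33 in red on the left and untreated in dark blue on the right of each gene, and a line at the mean of 3. The groups lie together for 6 genes. Hnrnpf has 2 low IL-33 libraries and Zmym1 1 low untreated library.

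How far 2 libraries differ in the transcripts of a gene was measured as the summed difference of their shares in one direction, in percentage points, which is 0 for equal shares and 100 for shares with nothing in common. For Nsun2 this difference was 61.6 to 76.3 points between an IL-33 and an untreated library, at most 2.29 points between IL-33 libraries and 1.82, 20.2 and 20.8 points between untreated libraries, the larger values being those of untreated replicate 2. For Ampd3 it was 69.2 to 75.2 points between groups and at most 10.6 points within the IL-33 and 11.6 points within the untreated group. For Arhgef11 it was 40.7 to 65.1 points between groups and at most 24.4 points within the IL-33 and 40.2 points within the untreated group. For Mrpl48 it was 26.9 to 40.5 points between groups and at most 22.6 points within the IL-33 and 15.7 points within the untreated group. In these 4 genes every pair across the groups differed more than every pair within a group, in Arhgef11 only narrowly (40.7 against 40.2 points). How many of all genes do so was not counted. Nothing is read from it because the genes were chosen on the same contrast. In the other 5 genes the ranges overlapped. For Frmd4b the difference was 51.3 to 73.2 points between groups and up to 68.0 points between untreated libraries, and for Zmym1 61.0 to 94.0 points between groups and up to 71.9 points between untreated libraries. For Hnrnpf it was 43.7 to 74.1 points between groups and up to 47.1 points between IL-33 libraries, for Setdb1 18.2 to 41.1 points between groups and up to 34.6 points between IL-33 libraries, and for Hnrnpk 17.4 to 37.4 points between groups and up to 31.0 points between IL-33 libraries.

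**Figure D4:**
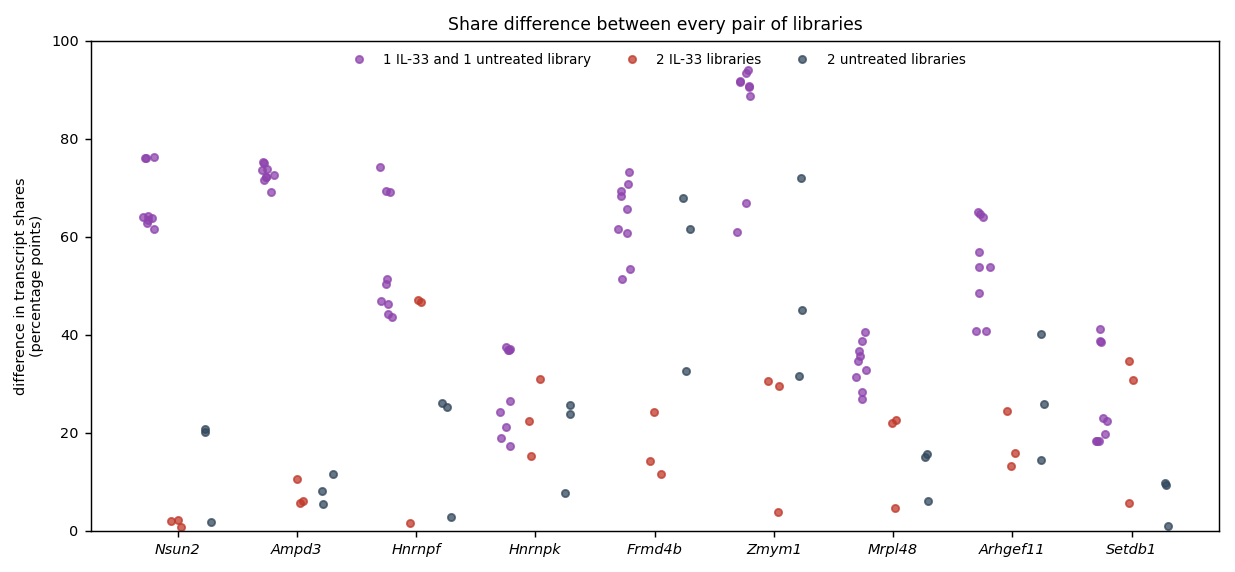
Difference in transcript shares (y axis, percentage points) for every pair of libraries in each of the 9 genes. Purple points pair an IL-33 with an untreated library, red points pair IL-33 libraries and dark blue points pair untreated libraries. Purple lies above all other points in Nsun2, Ampd3, Mrpl48 and, only narrowly, Arhgef11, and mixes with them in the other genes.

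The share shift of a gene is the same measure taken between the mean shares of the groups. Across 7996 genes with at least 2 transcripts and a mean of at least 400 deposited counts, the median shift was 5.60 points and the 90th percentile 23.5 points. Zmym1 had a shift of 80.8 points, rank 2 of 7996, Ampd3 of 70.1 points, rank 5, Nsun2 of 67.1 points, rank 8, and Frmd4b of 59.3 points, rank 21. Hnrnpf followed with 54.0 points, rank 39, and Arhgef11 with 52.7 points, rank 45. Mrpl48 with 31.6 points, Setdb1 with 23.7 points and Hnrnpk with 23.5 points were at ranks 354, 793 and 805, the last 2 close to the 90th percentile. The high ranks follow from how the genes were chosen, and 61 genes in all had a shift of at least 50 points.

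**Figure D5:**
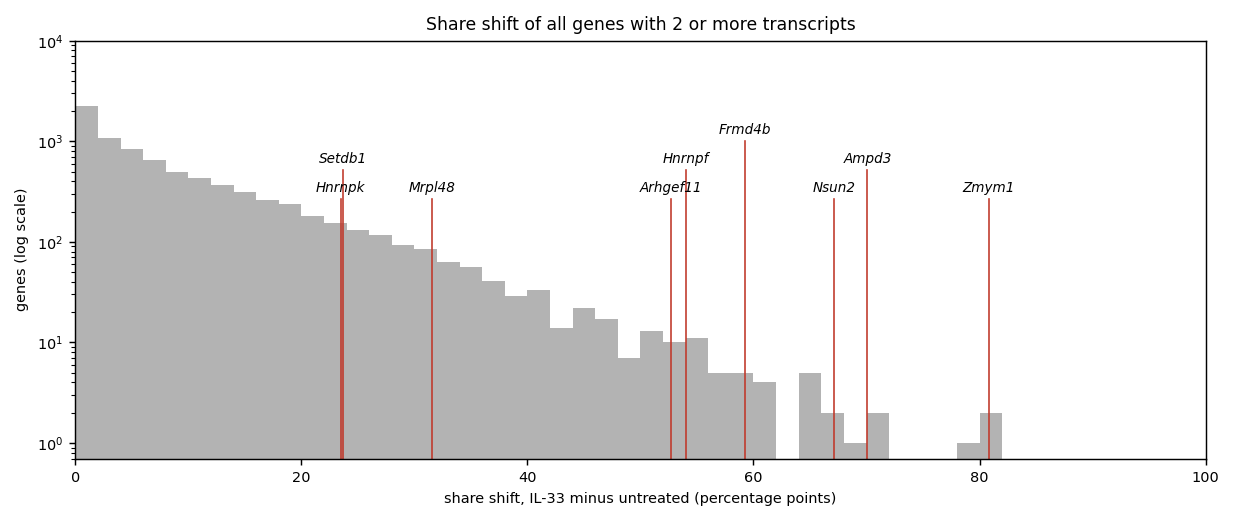
Number of genes (y axis, log scale) by share shift between the groups (x axis, percentage points) over 7996 genes, with a red line at each of the 9 genes. Setdb1 and Hnrnpk lie at 23.7 and 23.5 points near the 90th percentile, and Zmym1 at 80.8 points.

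A change of leading transcript was common between libraries of the same group. The transcript with the highest FPKM was not the same in all 3 IL-33 libraries for 1684 of the 7996 genes (21.1%), nor in all 3 untreated libraries for 1701 genes (21.3%). It was the same within each group and different between the groups in 18 genes (0.225%). Of the 9 genes, 2 are among these, Nsun2 and Ampd3, from which nothing is read since the contrast chose them. The leading transcript was the same in all 6 libraries for Hnrnpk and Mrpl48. For Setdb1 it was Setdb1-202 in IL-33 replicate 2 and Setdb1-204 elsewhere.

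The genes most like Nsun2 and Ampd3 in this pattern, by the size of the share shift among the rest of those 18 over 6 libraries, were Mpp2, Phka2, Zkscan5, Gnb2 and Neurl4. Mpp2 encodes a membrane scaffold protein, Phka2 a subunit of phosphorylase kinase, Zkscan5 a zinc finger protein, Gnb2 a G protein beta subunit and Neurl4 a protein of the centrosome. Mpp2-202 took 71.0% ± 5.35 with IL-33 and was listed at 0 untreated, where Mpp2-201 took 98.8% ± 1.78 (SD, n = 3 each). Phka2-203 took 70.7% ± 9.83 with IL-33 and 19.0% ± 19.5 untreated, and Zkscan5-201 took 47.8% ± 13.8 with IL-33 and was listed at 0 untreated. Gnb2-201 took 72.2% ± 24.4 with IL-33 and 28.5% ± 11.6 untreated, and Neurl4-213 took 46.0% ± 3.11 with IL-33 and 13% ± 1.75 untreated. The transcript that led untreated cells was annotated as protein-coding in all 5 genes, as was the one that led with IL-33.

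A test on the shares themselves, limma on arcsine square root count shares with Simes p-values per gene, was added after the data had been seen. It passed 9 of 4823 genes (0.187%), with 193 at an unadjusted p under 0.05. They were Ampd3, Nsun2, Frmd4b and Arhgef11, from which nothing is read since this contrast chose them, and 5 others, among them Mpp2, Zkscan5, Epn2 and Dnaja1. No gene passed without untreated replicate 2. In Epn2, whose product acts in endocytosis (adjusted p = 0.0320 in limma), Epn2-212 took 0.0362%, 0 and 0 with IL-33 and 21.5%, 21.1% and 26.4% untreated. In Dnaja1, which encodes a co-chaperone of HSP70 proteins (adjusted p = 0.0347 in limma), the non-coding Dnaja1-204 took 24.9%, 18.7% and 22.8% with IL-33 and 0.370%, 0.698% and 0.594% untreated. The limma adjusted p of Mpp2 was 0.00645 and that of Zkscan5 0.0320, with the shares given above. For Mpp2-202, Zkscan5-201, Epn2-212 and Dnaja1-204, the highest library of one group was below the lowest of the other. The test on shares had picked their genes from these same libraries, so this adds no support.

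Other genes of the same pathways were taken from 10 lists with 172 genes, of which 169 were tested as gene totals. None passed edgeR's test, with 11 at an unadjusted p under 0.05, and DESeq2 and limma on log2 FPKM called 0 of them as well. Without IL-33 replicate 3 Tra2b, an SR-like splicing factor, passed. Over all 15778 genes tested 1063 had an unadjusted p under 0.05, 7967 had a log2 fold change above 0 and the median was 0.00, and the medians of the lists lay between -0.06 and 0.05.

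Of 8 other enzymes and readers of RNA 5-methylcytosine, 1 had an unadjusted p under 0.05 and the median log2 fold change was 0.05. Nsun5, a methyltransferase of ribosomal RNA, averaged 34.5 ± 3.93 CPM with IL-33 and 41.1 ± 2.01 CPM untreated (SD, n = 3 each), and Nop2, another such enzyme, 268 ± 10.6 CPM with IL-33 and 285 ± 11.9 CPM untreated. Of 18 genes of purine nucleotide interconversion, the pathway of Ampd3, 1 had an unadjusted p under 0.05 and the median was -0.01. Aprt, which recovers adenine as AMP, averaged 172 ± 5.33 CPM with IL-33 and 189 ± 4.79 CPM untreated, and Nt5e, which cleaves extracellular AMP, 68.5 ± 6.96 CPM with IL-33 and 77.5 ± 3.32 CPM untreated.

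Of 6 genes of FRMD4A, the cytohesins and their partners none had an unadjusted p under 0.05 and the median was -0.01. The cytohesin genes Cyth1 and Cyth2 averaged 17.0 ± 1.23 and 65.8 ± 5.19 CPM with IL-33 and 19.1 ± 3.15 and 63.1 ± 1.86 CPM untreated (SD, n = 3 each). Of 6 other genes of the MYM type none had an unadjusted p under 0.05, with a median of -0.06, and Zmym6 and Qrich1 averaged 14.1 ± 0.824 and 108 ± 1.5 CPM with IL-33 and 12.6 ± 0.356 and 98.8 ± 13.5 CPM untreated.

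Of 48 other proteins of the mitochondrial large ribosomal subunit, 4 had an unadjusted p under 0.05, 16 had a log2 fold change above 0 (7967 of 15778 over all genes) and the median was -0.03, where Mrpl48 had -0.30. Mrpl13 averaged 71.4 ± 1.82 CPM with IL-33 and 79.7 ± 1.16 CPM untreated (edgeR adjusted p = 0.717), and Mrpl16 32 ± 0.678 CPM with IL-33 and 36.8 ± 1.23 CPM untreated (SD, n = 3 each).

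Of 26 other hnRNP genes, 3 had an unadjusted p under 0.05 and the median log2 fold change was 0.01, of 13 SR protein genes 0 and -0.03, of 16 other splicing regulators 1 and 0.00, and of 17 genes of H3K9 methylation and partners of SETDB1 1 and 0.01. In the planned test of transcript usage, edgeR's diffSpliceDGE, 123 of 8316 genes (1.48%) passed, but that test made many false calls on simulated data and nothing is rested on it. Among the listed genes it passed the splicing regulators Ptbp1, Srsf11 and Mbnl1 and Atf7ip, a partner of SETDB1. Atf7ip-207 had 7.72%, 14.9% and 5.55% of its gene with IL-33 and 0, 0.0645% and 0 untreated, without overlap, from at most 245 deposited counts. Srsf11-202 had 22.2%, 19.6% and 40.1% with IL-33 and 39.3%, 59.8% and 58.6% untreated. Mbnl1-219 had 3.24%, 0.708% and 0.329% with IL-33 and 27.6%, 28.2% and 0.181% untreated, and Ptbp1-206 had 7.06%, 0.677% and 12.9% with IL-33 and 0.917%, 0.158% and 0.824% untreated. Srsf11-202, Mbnl1-219 and Ptbp1-206 overlapped between the groups, and no listed gene passed the test on shares, which was run on 92 of them (lowest adjusted p = 0.714).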

How the data were processed

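RNA sequencing measured RNA of primary mouse keratinocytes in 3 IL-33 and 3 untreated libraries. According to the submitters' processing notes the tools included HISAT2 2.1.0 and StringTie 1.3.4d, with FastQC 0.11.7 and DESeq2 1.18.1, on the mouse build mm10, and no step is assigned to any of them. The sources used here do not give the annotation release, the use of strand or the handling of reads that map to several places. Per the file headers, the authors deposited 2 kinds of value for every gene and every transcript, estimated counts and FPKM. All deposited estimated counts were already whole, and no rounding was needed. Low values rebuilt from FPKM and exon length pile up at 4 (within 0.125, 1382 to 1524 transcripts per library) against 405 to 460 at 3 and 318 to 385 at 5, so 4 deposited counts were taken as about 1 fragment, which gives 8547043 to 11316574 fragments per library. The floor was 3 fragments, or 12 deposited counts, and covers counting error only. PCR duplicates may make the true precision lower.

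Names, exons and sequences of transcripts were taken from GENCODE M21 (GRCm38, the same build as mm10). Of 131146 deposited transcripts, 127421 (97.16%) are in it with the same version, and 52403 of 52550 genes have a symbol. All 102 transcripts of the 9 genes matched. A share is a transcript's FPKM over the sum of the gene's transcript FPKM, which takes length into account. CPM is the deposited count scaled to 1000000 per library, with TMM factors for single genes and without them for marker sums.

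Genes and transcripts were tested with edgeR 4.0.16 (quasi-likelihood test, TMM, filterByExpr at its minimum count of 10, R 4.3.3), the 3 IL-33 against the 3 untreated libraries, with Benjamini-Hochberg adjustment over the whole table and a threshold of 0.05. Transcript usage was tested with edgeR's diffSpliceDGE, which made many false calls on simulated data, so limma 3.58.1 on count shares was added after seeing the data (genes with a mean of at least 400 deposited counts, transcripts with a mean share of at least 5%). On simulated data the gene test recovered most changed genes, whereas the transcript test missed most changes of moderate size and found most of the very large ones, and limma on shares found a minority of the changed genes. The alternatives were DESeq2 1.42.0, limma on log2(FPKM + 0.1) and log2(FPKM + 1), other scaling and filters, deposited counts divided by 4, count shares, the replicate number as a block and each library left out in turn.

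The 9 genes and the gene lists were chosen with earlier results of these data known. The text names all 9 genes and their transcripts with a mean share of at least 5% in a group. It names the 5 other genes with the largest share shift whose leading transcript is the same within each group and differs between groups. Of each list it names every gene that passed a test, or else the 2 with the smallest p. Golim4, Epn2, Dnaja1 and Tra2b were named after their values were seen. No library was counted as a copy, since each differed from every other beyond sampling noise. No column of values was left out. Results for 1 gene and 1 gene list are not reported here.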

Additional observations from a re-analysis of the deposited data

How the results depend on the processing

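The number of transcripts that passed, 12, was 0 with the replicate number as a block (edgeR, 1196 at an unadjusted p under 0.05), 535 with DESeq2, 109 with limma on log2(FPKM + 0.1), 21 with limma on log2(FPKM + 1), and 6 to 28 when single libraries were left out. It was 6 when untreated replicate 2 was left out, 7 for IL-33 replicate 1 and 28 for IL-33 replicate 3. With deposited counts divided by 4, 9 transcripts passed, 3 higher and 6 lower with IL-33, against 6 and 6 in the main fit. The number of genes that passed, 11, was 17 with no filter on low counts, 60 with DESeq2 (28 higher and 32 lower with IL-33, against 7 and 4), 2 with either limma setting, and 11 to 90 with each library left out, the higher counts being 18 (untreated replicate 3 left out), 20 (IL-33 replicate 1) and 90 (IL-33 replicate 3, 16 higher and 74 lower). With the replicate block 8 genes passed. The diffSpliceDGE count, 123, was 203 with no filter, 52 with the stricter filter, 58 with counts divided by 4, 47 with the replicate block, and 135 to 193 with each library left out, the highest without IL-33 replicate 2. The count of limma on shares, 9, was 0 with the replicate block (163 at an unadjusted p under 0.05) and 0 to 12 with each library left out, with 0 without untreated replicate 2 (229 at an unadjusted p under 0.05). The causes were not tested. The deviations of same-numbered libraries from their group means had correlations of 0.04, 0.03 and -0.02 over 15778 genes, so the numbers were not taken as pairs. Relative to sampling noise, the median squared difference over genes was 2.57, 2.61 and 2.27 for the same-numbered libraries 1, 2 and 3. IL-33 replicate 3 had 2.52 and 2.45 against IL-33 replicates 1 and 2, so it was nearer to untreated replicate 3. The cause was not tested.

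The share shift of Ampd3 was 77.6 points on count shares, against 70.1 on FPKM shares. No other share shift moved by more than the spread between libraries on count shares, on summed FPKM or with a library left out. With each library left out the shifts were 63.1 to 69.3 points for Nsun2, 69.7 to 72.0 for Ampd3, 46.4 to 58.5 for Hnrnpf, 20.0 to 30.5 for Hnrnpk, 56.2 to 63.2 for Frmd4b, 75.5 to 90.6 for Zmym1, 29.4 to 34.3 for Mrpl48, 47.3 to 58.9 for Arhgef11 and 18.9 to 27.8 for Setdb1. The fold changes of the 9 gene totals moved by no more than the spread between libraries with DESeq2's size factors, with summed transcript counts, with the replicate block and with each library left out, and their sign differed in 1 of 9 with the size factors and in 4 of 54 fits without a library. Those of the named leading transcripts moved by more in 14 of 90 fits without a library, 1 of them in sign.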
